A study of Mus musculus with 4 samples.

Results

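The voltage-gated sodium (Nav) and calcium (Cav) channel genes were followed in the cortex of APPswe/PS1ΔE9 and wild-type mice. Members were the symbols of protein-coding transcripts in the deposited table that begin with Scn, a number and a or b, or with Cacna, Cacnb or Cacng and a number, and the read counts of their protein-coding transcripts were summed per gene. The rule found 36 genes, carried by 61 transcripts, among 14241 protein-coding symbols. Upper and lower case were treated alike, since the table spells 26 of the members in capitals and 10 in title case. The genes cover 8 Nav pores, 4 Nav β subunits, 9 Cav pores, 4 α2δ subunits, 4 Cav β subunits and 7 γ subunits. Of the 40 genes that match the pattern in GENCODE M21, Scn2a was listed under its older symbol Scn2a1 and Cacna1i only in rows without a symbol, so the rule reached neither. Both are given beside the members. Scn4a and Cacng1, the skeletal muscle genes, had no row.

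RNA of total cortex was sequenced from 2 male mice that carry the APPswe and PS1ΔE9 transgenes (APP) and from 2 male C57BL/6J mice as wild-type controls (WT), all of C57BL/6 background and 12 months of age. The transgenes are driven by the promoter of Prnp, so their RNA is not limited to the cells that hold a given channel. The libraries, 1 per mouse, are called APP.3, APP.4, WT.1 and WT.2 after the columns of the table. They held between 28525117 and 43881196 counts, and between 95305 and 155739 of them lay on the members.

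A Nav or P/Q-, N-, R- or L-type Cav channel is built around a single large pore protein that senses the membrane voltage. Nav pores open first and carry the rising phase of the action potential, and their β subunits set how fast they close and where in the membrane they sit. Cav pores let in calcium, which triggers transmitter release at presynaptic endings and signals to the nucleus from the soma. The intracellular Cav β and the extracellular α2δ subunits bring these pores to the surface. Most γ subunits of the brain serve AMPA receptors rather than calcium channels and are known as TARPs.

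Several Nav pore genes share stretches as long as a read, which bears on how their counts can be told apart. The genes Scn3a (chr2:65457118-65567627, GRCm38), Scn1a (chr2:66270778-66440840), Scn9a (chr2:66480080-66634962) and Scn7a (chr2:66673425-66784914) lie in a cluster with Scn2a1. Windows of 100 bases, the length of the reads, were taken from the most counted transcript of each gene and compared without gaps with the transcripts of the same class. A window was called shared where it matched with 7 or fewer mismatches, the number allowed in the authors' alignment. Shared windows made up 14.3% of Scn1a, 16.3% of Scn2a1, 15.2% of Scn3a and 11.0% of Scn9a. Some were identical, 101 windows in Scn1a, 135 in Scn2a1, 279 in Scn3a and 191 in Scn9a. A read from an identical window cannot be assigned to 1 gene by its sequence alone, and the sources used here do not state how such reads were counted. Scn8a shared 0.125% of its windows and Scn7a and Scn11a none, while Scn10a shared 7.09%, none of them identical. Among the Cav pores the shared windows reached at most 0.958%, in Cacna1g with Cacna1h, and among the β, α2δ and γ subunits there were 0. The counts of Scn1a, Scn2a1, Scn3a, Scn9a and Scn10a are therefore less certain as single genes than those of Scn8a or the Cav genes.

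**Figure D1:**
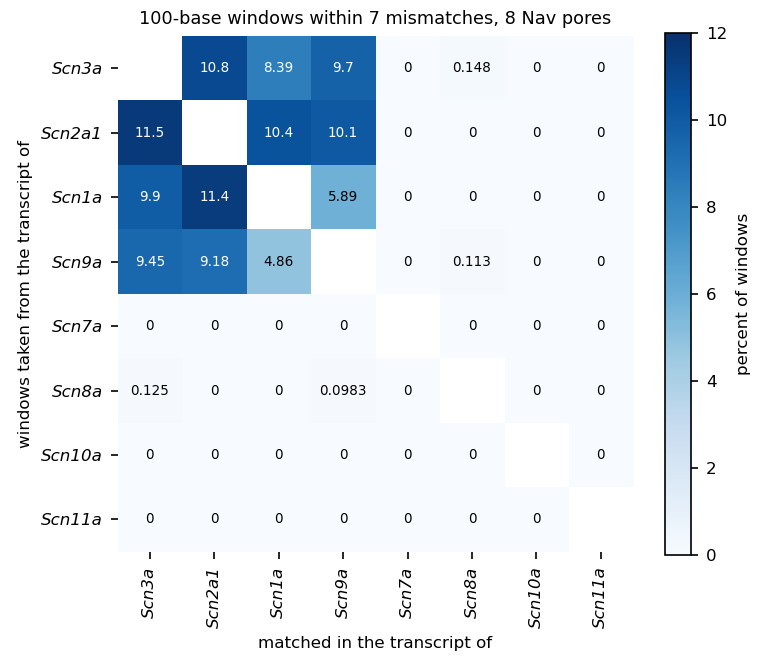
Percent of the 100-base windows of 8 Nav pore transcripts (rows) that match another of the 8 (columns) with 7 or fewer mismatches, matches to other transcripts left out. The block of Scn3a, Scn2a1, Scn1a and Scn9a stands out, with 4.86% to 11.5% of windows shared between any pair.

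The genotype was visible in App and in Prnp, the gene whose promoter drives the transgenes. App was at 2690 and 2390 CPM (a library's counts scaled to a common total) in APP.3 and APP.4 against 856 and 905 in WT.1 and WT.2, and Prnp at 1860 and 1620 against 525 and 533. Reads of the human transgenes can be counted on the mouse genes that they match, as for App. The source of the added Prnp counts was not tested. Summed levels of 10 neuronal markers, which include genes of excitatory and inhibitory cells, were 5340 and 4500 CPM in APP and 5010 and 4990 in WT. These sums include Syt1, which was at 1270 and 620 CPM in APP and 724 and 706 in WT. Of the 10 neuronal markers, 3 were lower in both APP libraries and 1 was higher, against 19.7% and 20.8% of all features. None of the 10 was called. Microglial markers summed to 298 and 369 CPM in APP against 184 and 186 in WT, with 9 of 12 called higher, and oligodendrocyte markers to 1610 and 1400 against 1030 and 1160, with 3 of 9 called higher. Of the other lists, 2 of 8 astrocyte markers and 4 of 7 hypothalamic markers were called higher and 1 of 8 interneuron markers lower, while 0 of 12 striatal, 7 thalamic, 6 oligodendrocyte precursor, 7 endothelial, 7 mural and 5 choroid plexus markers were called. Over all features, 1.03% were called higher and 0.156% lower. The tissue is bulk, so fewer cells of a type and less RNA per cell cannot be told apart.

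Across the whole set, no channel gene passed the test between APP and WT. With edgeR's quasi-likelihood test and an adjusted p under 0.05 over 24379 features, 0 of the 36 genes were called higher and 0 lower, against 1.03% of all features called higher and 0.156% called lower. At an unadjusted p under 0.05 there were 5 of 36, against 10.7% of all features and 2164 of the 16139 protein-coding features. DESeq2 and edgeR's likelihood ratio test each called 1 member lower, where they called 0.222% and 0.48% of all features lower, and edgeR's exact test called 0, against 0.398%. None of these tests called a member higher, against 1.08% of features with DESeq2, 2.1% with the likelihood ratio test and 1.93% with the exact test. The log2 fold changes of APP over WT had a median of -0.05 over the members, with quartiles of -0.13 and 0.04, and a median of 0.00 over all features. The 2 APP libraries were both below the 2 WT libraries in 12 of the 36 genes, against 19.7% of features. They were both above in 4, against 20.8% of features. Of the 16139 protein-coding features, 3572 were below and 3483 above in this way. Of the 31 members with a mean of at least 1 CPM, 24 lay within 0.25 of 0 on the log2 scale and 19 were negative. Over the 13614 protein-coding features of that level, 82.7% lay within that range and 52.2% were negative. The members summed to 3290 and 3310 CPM in APP and to 3540 in each WT library. Tested one by one, 0 of the 61 transcripts were called, against 0.914% of transcripts called higher and 0.147% called lower.

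These counts rested on both APP mice. Without APP.3, 5 members were called higher and 7 lower, in a fit that called 4.33% of all features higher and 3.4% lower. Without APP.4, 0 were called higher and 5 lower, against 3.01% and 2.11% of all features. Calls were thus more frequent over the whole table when an APP library was left out, and in these fits the remaining APP library was assumed to vary like the WT pair. Leaving out either WT library gave 0 and 0, against 0.713% and 0.0824% without WT.1 and 0.747% and 0.0821% without WT.2. Without APP.3 the genes called higher included Scn9a (log2 fold change 1.03), Cacng4 (0.49), Cacna2d2 (0.39) and Cacna1h (0.30), and those called lower included Cacng2 (-0.29), Cacnb1 (-0.26), Scn2b (-0.23), Cacna2d1 (-0.22), Cacnb4 (-0.22) and Scn1a (-0.19). Without APP.4 the genes called lower included Scn4b (-0.73), Cacnb3 (-0.31), Cacnb1 (-0.27) and Cacna2d3 (-0.26). Cacnb1 was called in both of these fits. Among 40 partners of the channels, 3 were called higher and 6 lower without APP.3, and 2 higher and 2 lower without APP.4, beside the same shares of all features.

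**Figure D2:**
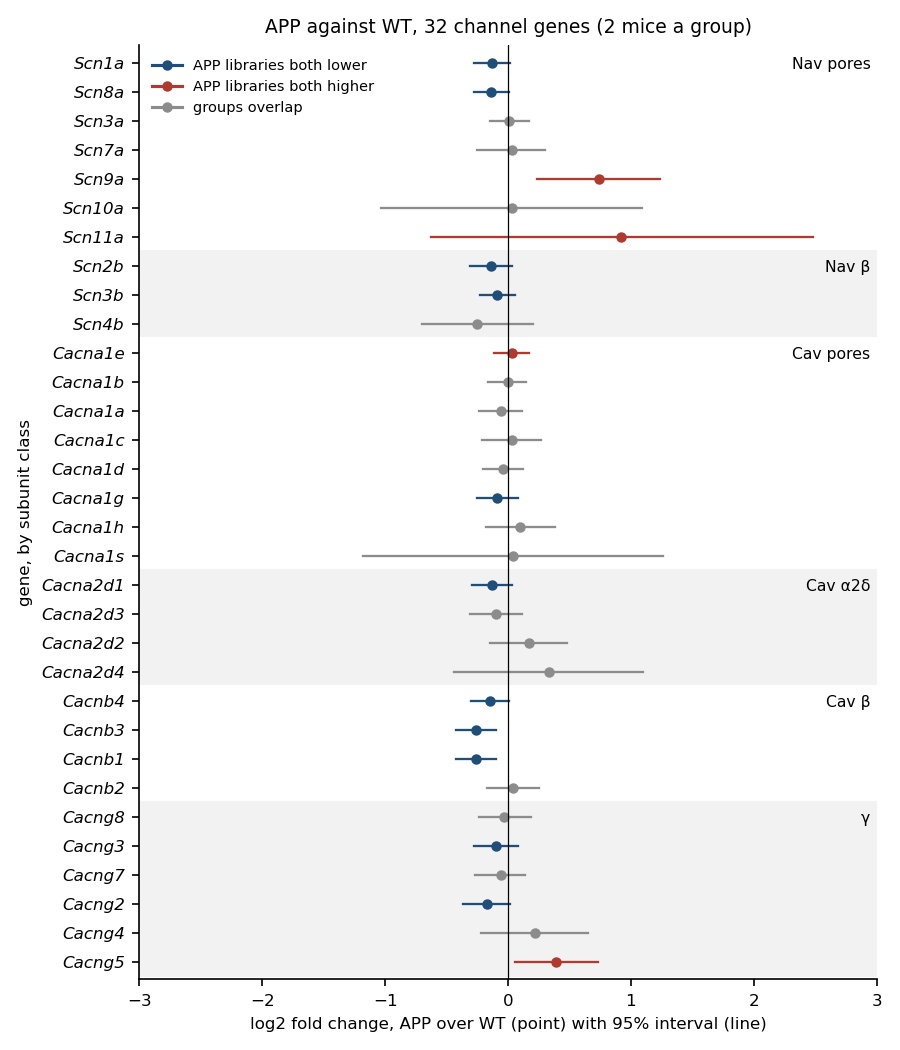
Log2 fold change of APP over WT (points) with its 95% interval from edgeR's quasi-likelihood fit (lines) for the 32 genes shown that had over 3 counts in every library, by subunit class and, within a class, by level. Blue marks the 11 genes whose APP libraries were both lower, red the 4 whose APP libraries were both higher and grey those that overlapped, and the widest intervals belong to genes with few counts, such as Scn11a, Cacna1s and Scn10a.

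Levels between genes are compared as RPKM, which is CPM divided by the length of the transcript in kilobases. The α2δ gene Cacna2d1 led the members, at 97.3 RPKM in APP and 107 in WT, and Cacnb4 (51.1 and 56.5), Scn2b (50.2 and 55.2) and Scn1a (45.7 and 50.0) were also among the highest. In each library Cacna2d1 was above these 3, while Cacnb4, Scn2b and Scn1a all lay between 44.0 and 56.7 RPKM in the 4 libraries. Scn2a1, outside the rule, was at 75.1 to 88.2 RPKM by its GENCODE gene. At the other end were Scn10a, Cacna1s, Scn11a and Cacna1f, all below 0.1 RPKM in every library. These are known from sensory neurons (Scn10a and Scn11a), skeletal muscle (Cacna1s) and retina (Cacna1f).

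**Figure D3:**
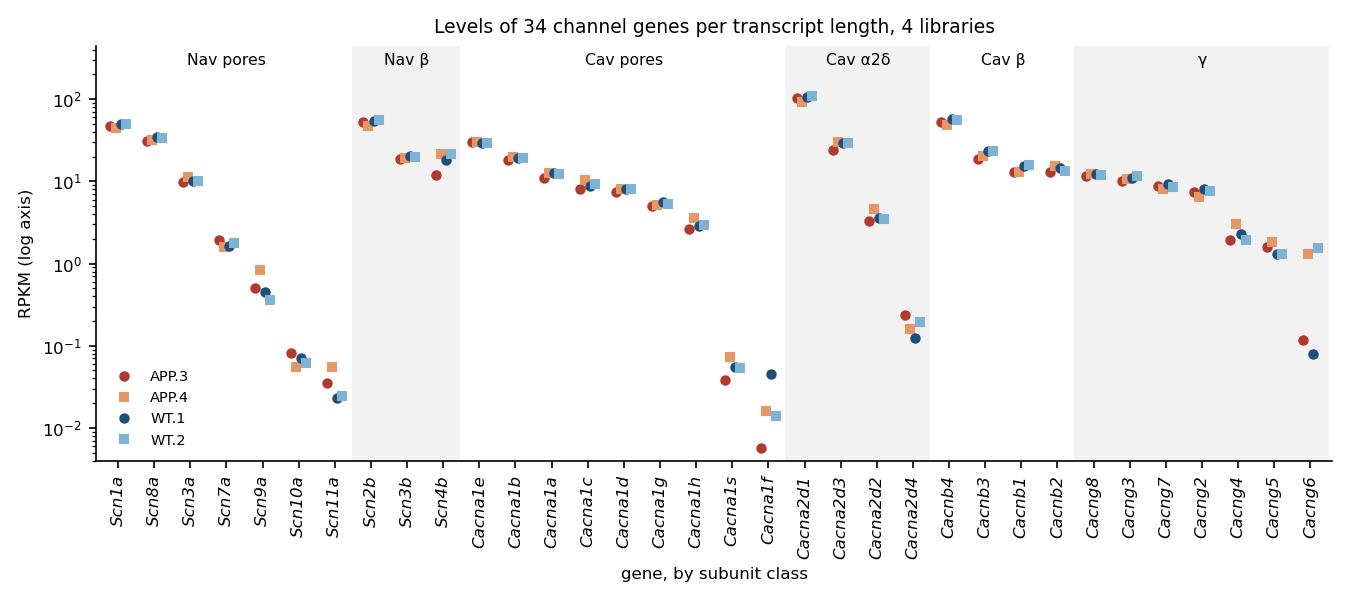
RPKM (log axis) of 34 of the genes in each of the 4 libraries, by subunit class and ordered by level. Within a class the levels fall over a range much wider than the spread between libraries, and Cacng6 is the gene whose libraries lie furthest apart, at 0.0786 to 1.56 RPKM.

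The Nav pores of the cortex were Scn1a, Scn8a and Scn3a beside Scn2a1, and none of them was called. Scn1a, which encodes Nav1.1, the pore on which parvalbumin interneurons depend, was at 385 and 358 CPM in APP.3 and APP.4 and at 407 and 406 in WT.1 and WT.2. Its log2 fold change was -0.13 with a standard error of 0.07 (adjusted p = 0.556). Scn8a, which encodes Nav1.6 of the axon initial segment and node of Ranvier, was at 345 and 343 CPM in APP and 385 and 371 in WT. Both APP libraries were below both WT libraries for these genes, by amounts that did not pass the test (Scn8a, log2 fold change -0.14, standard error 0.07, adjusted p = 0.505). Scn2a1, for Nav1.2 of excitatory neurons, was at 721 and 643 CPM in APP and 744 and 751 in WT, again without overlap (log2 fold change -0.13, adjusted p = 0.567). Scn3a, the pore of the embryonic brain, lay between 91.5 and 98.6 CPM in all 4 libraries, with overlap. As shares of the summed RPKM of the 8 Nav pores and Scn2a, Scn2a made up 45.5% to 48.2%, Scn1a 26.7% to 27.1%, Scn8a 17.7% to 19.1% and Scn3a 5.52% to 6.78% over the libraries. For Scn3a the highest share was that of APP.4, and for Scn2a the lowest was.

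Interneuron markers were mixed in sign. Of the 8, 3 were lower in both APP libraries, against 19.7% of all features, and 5 overlapped. Of the same 8, 1 was called lower, against 0.156% of all features. Pvalb, the calcium-binding protein that names the parvalbumin interneurons, was at 20.4 and 18.3 CPM in APP and 30.6 and 25.4 in WT, and was called lower (log2 fold change -0.54, standard error 0.11, adjusted p = 0.0453). The neuropeptide genes Vip and Npy of other interneurons were the other two without overlap, with log2 fold changes of -0.33 (adjusted p = 0.12) and -0.20 (adjusted p = 0.461). Lhx6, a transcription factor gene of the parvalbumin and somatostatin lineage, and Gad2, a glutamate decarboxylase gene, had positive values of 0.19 each (adjusted p = 0.803 and 0.637). The other glutamate decarboxylase gene, Gad1, lay at 233 and 294 CPM in APP and 298 and 277 in WT, with overlap. Among excitatory markers, Slc17a7, the vesicular glutamate transporter, was at 323 and 313 CPM in APP and 382 and 392 in WT (log2 fold change -0.28, adjusted p = 0.0824). The part of these in the channel values was not tested.

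The minor Nav pores held the largest positive values. Scn9a, which encodes Nav1.7, known for its role in pain-sensing neurons, was covered by 145 and 252 reads in APP, APP.3 first, and by 192 and 124 in WT, WT.1 first. This is 5.01 and 8.13 CPM against 4.36 and 3.50. Both APP libraries were above both WT libraries, APP.4 by far the more, and the log2 fold change of 0.74 (95% interval 0.24 to 1.24) did not pass the test (adjusted p = 0.217). Without APP.4 it was 0.34, and without APP.3 it was 1.03, each with 1 APP mouse left. A retained-intron transcript of Scn9a, which the rule leaves out, was at 8 and 12 counts in APP and 3 and 4 in WT. Hypothalamic markers moved with the group as well. They summed to 10.7 and 13.9 CPM in APP against 5.43 and 4.93 in WT over the 7 of 9 that were tested, with the neuropeptide gene Avp at 18 and 102 counts against 2 and 0, Oxt at 12 and 22 against 0 and 1, and the transcription factor gene Sim1 at 29 and 34 against 2 and 0. Their part in the value of Scn9a was not tested, nor was that of the windows it shares with other Nav pores. Of its windows, 185 were identical in Scn3a, 4 in Scn2a1 and 4 in Scn1a. Scn3a had 2648 and 3058 counts in APP and 4251 and 3250 in WT. Scn2a1 had 79.1 to 215 times the counts of Scn9a over the 4 libraries.

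Scn7a, a sodium-sensing relative of the pores, had between 358 and 533 counts in all libraries. The sensory neuron genes were close to the limit of the data. Scn10a had 11 to 20 counts per library, and Scn11a had 6 and 10 counts in APP and 6 and 5 in WT, so its log2 fold change of 0.92, the highest among the members, had a 95% interval from -0.63 to 2.48.

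The Nav β genes Scn2b and Scn3b were lower in both APP libraries by small amounts that did not pass the test. Scn2b, whose product is tied to the pore by a disulfide bond, was at 210 and 187 CPM in APP and 215 and 222 in WT (log2 fold change -0.14, adjusted p = 0.567). Scn3b, whose product binds pores without a covalent bond, was at 78.0 and 79.1 CPM against 83.7 and 83.1 (log2 fold change -0.09, adjusted p = 0.728). For both genes the groups did not overlap.

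Scn4b was the β gene that differed between the APP mice. It encodes β4, known from resurgent sodium current and from striatal projection neurons, and it was named here after its values were seen. Its level was 60.1 CPM in APP.3 and 108 in APP.4, against 90.7 and 109 in the WT libraries, so APP.3 stood below the others and APP.4 was level with WT.2. Its log2 fold change of -0.25 had a 95% interval of -0.70 to 0.20 (adjusted p = 0.743). It became 0.10 without APP.3 and -0.73 without APP.4, fits that leave 1 APP mouse and cannot measure the spread between APP mice. The 12 striatal markers summed to 339 and 694 CPM in APP.3 and APP.4 and to 466 and 524 in WT.1 and WT.2, so their sum too was lowest in APP.3 and next lowest in WT.1. APP.3 was the lowest library for 11 of the 12 and APP.4 the highest for all 12, and 10 followed the order of the sum in full. The exceptions were the dopamine receptor gene Drd1a (33.8, 58.2, 44.8 and 36.7 CPM in the same order of libraries) and the neuropeptide gene Tac1 (15.8, 24.7, 17.4 and 13.1), where WT.2 was below WT.1. Among those that followed it, the dopamine receptor gene Drd2 was at 0.864, 6.26, 2.93 and 4.31 CPM, and the adenosine receptor gene Adora2a at 2.70, 13.7, 8.93 and 11.4. Both were above 0 in every library, and the cells that held this RNA were not identified. Scn2b, which lies next to Scn4b (chr9:45117782-45130070 and chr9:45138395-45154152), had its higher APP value in APP.3. The part of striatal tissue in the values of Scn4b was not tested.

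**Figure D4:**
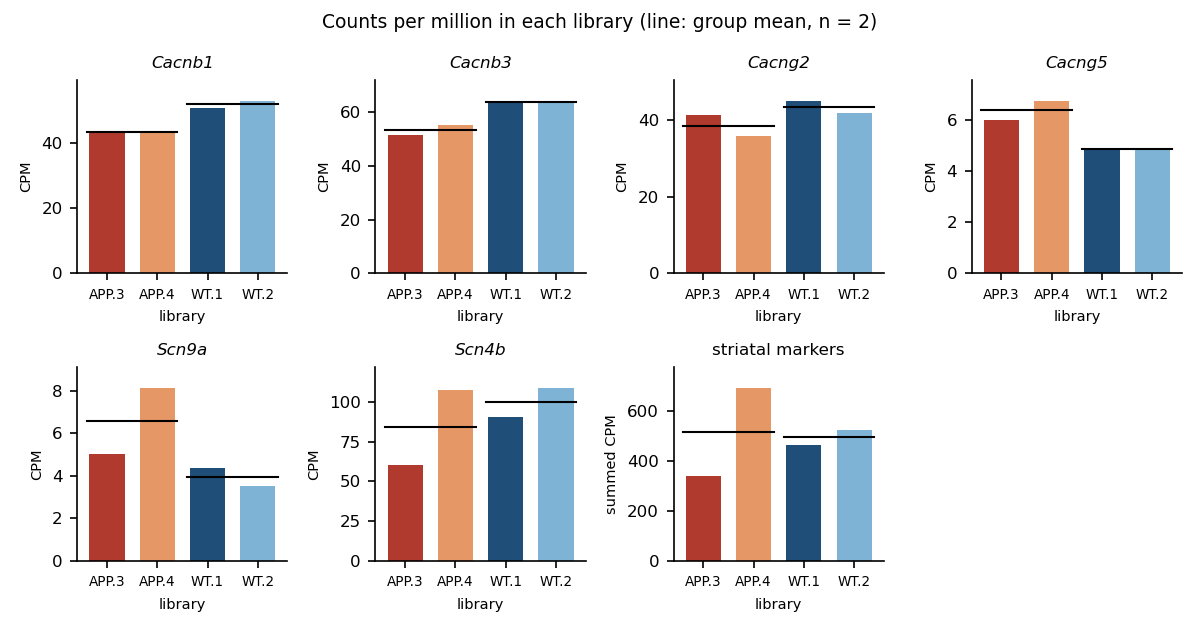
CPM in each library (bars) with the mean of each group (line, n = 2) for 5 members with large log2 fold changes, a mean of at least 0.5 CPM and no overlap, for Scn4b, and for the sum of 12 striatal markers. Cacnb1 and Cacnb3 are low in both APP libraries, Scn9a is raised mostly in APP.4, and Scn4b and the striatal markers are lowest in APP.3.

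The 7 Cav pores of at least 1 CPM lay close to WT, with log2 fold changes from -0.09 to 0.10. Cacna1e, the R-type pore, led them at 385 and 379 CPM in APP and 377 and 371 in WT (log2 fold change 0.03, 95% interval -0.11 to 0.17). It was followed per length by Cacna1b, the N-type pore of presynaptic endings, at 130 and 140 CPM in APP and 138 and 132 in WT (log2 fold change 0.00, 95% interval -0.16 to 0.15). The groups did not overlap for Cacna1e, though the gap was small beside the interval, and they overlapped for Cacna1b. Cacna1a, the P/Q-type pore that drives fast release, had a log2 fold change of -0.06 (95% interval -0.24 to 0.11). The L-type pores Cacna1c and Cacna1d, which couple activity to gene expression, had values of 0.03 and -0.04. Of the T-type pores, which open near the resting potential, Cacna1g had a log2 fold change of -0.09 and Cacna1h of 0.10. The third T-type gene, Cacna1i, summed by its GENCODE gene, was at 60.8 and 63.2 CPM in APP and 68.5 and 66.5 in WT (log2 fold change -0.12, adjusted p = 0.591). Shares of the summed RPKM of the 9 pores and Cacna1i stayed within 29.7% to 32.9% for Cacna1e, 19.4% to 20.0% for Cacna1b and 12.1% to 13.1% for Cacna1a. These shares count rows without a symbol for Cacna1i but leave such rows out for the 9 members. Summed by its GENCODE gene, Cacna1e was at 505 and 494 CPM in APP and 486 and 484 in WT (log2 fold change 0.04). Its mean RPKM was then 37.4 instead of 29.8, so the share given for it is too low.

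The pores of muscle and retina were near 0. Cacna1s had 7 and 14 counts in APP and 15 and 12 in WT. Cacna1f had 1 and 3 counts in APP and 12 and 3 in WT, which overlap, and no fold is given because the APP libraries were at or under 3 counts.

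Retained-intron transcripts of Cacna1e, which the rule leaves out, were the most counted of the non-coding kinds among the members. They were at 1333 and 1566 counts in the APP mice and at 1974 and 1611 in the WT mice. Cacnb2 and Scn1a came next, with 435 to 630 and 386 to 701 counts on processed transcripts. Summing all transcript kinds called 0 members in either direction.

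Among the α2δ genes, Cacna2d1 made up most of the class. It encodes α2δ-1, the binding site of gabapentin, and was at 407 and 367 CPM in APP.3 and APP.4 and 416 and 432 in WT.1 and WT.2. The APP libraries were both lower (log2 fold change -0.13, standard error 0.07, adjusted p = 0.579). Cacna2d3, the second of the class per length, was at 90.2 and 111 CPM in APP and 107 and 109 in WT, where APP.3 alone was low. Its log2 fold change of -0.10 became -0.26 without APP.4, with 1 APP mouse left. Cacna2d2, known from the cerebellum, was at 18.7 and 26.9 CPM in APP against 20.5 and 20.2, where APP.4 alone was high. Its log2 fold change was 0.17, and 0.39 without APP.3, again with 1 APP mouse left. Cacna2d4, a retinal gene, had 29 to 40 counts per library. Cacna2d1 held between 72.5% and 78.6% of the summed RPKM of the class.

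The Cav β genes had a median of -0.20 on the log2 scale, beside -0.19 for the Nav β genes. Of the 4 Cav β genes, 3 were below WT in both APP libraries, against 19.7% of all features. Cacnb4, the main β gene here and the one mutated in the epileptic lethargic mouse, was at 440 and 400 CPM in APP and 466 and 463 in WT (log2 fold change -0.15, standard error 0.07, adjusted p = 0.505). Cacnb3 (chr15:98630840-98644529) was at 51.7 and 55.2 CPM against 63.6 and 64.3 (log2 fold change -0.26, 95% interval -0.42 to -0.10, adjusted p = 0.164). Cacnb1 (chr11:98001508-98023034), also the β subunit of skeletal muscle, was at 43.1 and 43.6 CPM against 50.9 and 53.0 (log2 fold change -0.26, 95% interval -0.42 to -0.10, adjusted p = 0.155). In both Cacnb1 and Cacnb3 the groups were well separated, and neither passed the test. Leaving out each library kept Cacnb1 between -0.29 and -0.23 and Cacnb3 between -0.31 and -0.22. Without APP.4 they were at -0.27 and -0.31, and without APP.3 at -0.26 and -0.22, with 1 APP mouse left in each fit. Cacnb2, the β gene of the heart, overlapped, at 27.9 and 32.8 CPM against 30.7 and 28.3.

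Most counts of these genes were assigned to 1 transcript each, whose values followed those of the gene. How reads shared by the transcripts of a gene were assigned is not stated in the sources used here. For Cacnb1 the transcript of 3396 bases was at 1217 and 1327 counts in APP and at 2205 and 1843 in WT (log2 fold change -0.27, adjusted p = 0.171 over transcripts). For Cacnb3 the transcript of 2734 bases had 1476 and 1687 against 2756 and 2252 (log2 fold change -0.26, adjusted p = 0.184). Cacnb2 was the exception, with counts split over 3 transcripts that had log2 fold changes of -0.04, 0.08 and 0.09.

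The γ genes, largely TARPs, were lower in level and mixed in sign. Cacng8, the hippocampal TARP γ-8, was at 16.1 and 16.9 CPM in APP and 17.2 and 16.4 in WT, with overlap. Cacng3 was at 28.3 and 29.7 CPM against 30.2 and 32.1, and Cacng2, which encodes stargazin, at 41.2 and 35.8 against 45.0 and 41.8. These did not overlap, and their log2 fold changes were -0.10 (adjusted p = 0.740) and -0.17 (adjusted p = 0.533). Cacng7 was at 18.1 to 20.4 CPM with overlap. Cacng5 was the only TARP above WT in both APP libraries, at 5.98 and 6.74 CPM against 4.86 and 4.82 (log2 fold change 0.39, 95% interval 0.06 to 0.73, adjusted p = 0.358). Cacng4 was at 6.71 and 10.5 CPM in APP against 7.41 ± 0.833 (SD, n = 2) in WT, where APP.4 alone was high. Its neighbour Cacng5 (chr11:107874605-107915055, beside chr11:107732357-107794557 for Cacng4) did not share the gap between the APP mice.

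Cacng6, a relative of the γ subunit of skeletal muscle, had 3 and 35 counts in the APP mice and 3 and 48 in the WT mice. In each group 1 mouse was at the limit of 3 counts and the other well above it, so no fold between groups is given. The gene lies next to Cacng8 in a cluster on chromosome 7 (chr7:3424195-3435667), and neither Cacng7 nor Cacng8 followed that pattern.

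The mice of a group differed more in the APP pair than in the WT pair. Of the 31 members of at least 1 CPM, 6 differed by over 0.5 on the log2 scale between APP.4 and APP.3, against 6.24% of the 13612 protein-coding features compared. Between WT.2 and WT.1, 1 member did, against 3.21%. The median size of the difference was 0.15 in APP and 0.06 in WT for the members, and 0.13 and 0.08 for the protein-coding features. Among them were Scn4b (0.84), Scn9a (0.70), Cacng4 (0.65), Cacna2d2 (0.52) and Cacna2d4 (-0.56), all but Scn4b below 30 CPM in every library. The most abundant members, from Cacna2d1 to Cacna1e, differed by 0.16 or less.

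**Figure D5:**
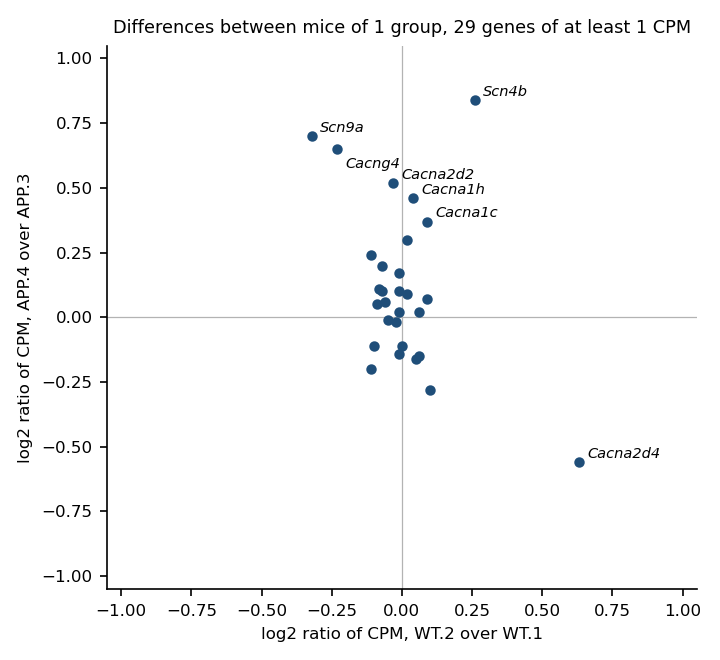
Log2 ratio of CPM between the 2 APP mice (vertical axis) against that between the 2 WT mice (horizontal axis) for 29 members of at least 1 CPM. Most genes lie near the centre, while Scn4b, Scn9a, Cacng4 and Cacna2d2 lie over 0.5 higher in APP.4 than in APP.3 and Cacna2d4 lies lower.

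Partners of the channels were read from the same fit, over 40 genes that include Scn2a1. None passed the test, with 0 called higher and 0 lower, against 1.03% and 0.156% of all features. At an unadjusted p under 0.05 there were 5 of the 40, against 10.7% of all features and 2164 of the 16139 protein-coding features. The exact and likelihood ratio tests of edgeR each called 1 higher, Itpr2, where they called 1.93% and 2.1% of all features higher. DESeq2 called 0, against 1.08% of all features higher and 0.222% lower. The intracellular Nav partners known as FHFs numbered 4, of which Fgf11 had the largest value, at 9.85 and 11.6 CPM in APP and 9.46 and 8.32 in WT (log2 fold change 0.27, adjusted p = 0.534). Of the 8 scaffold genes of the axon initial segment and node, Sptan1, for αII spectrin, had the largest, at 1430 and 1420 CPM against 1520 and 1560 (log2 fold change -0.11, adjusted p = 0.539), while Ank3, for ankyrin-G, which holds Nav channels in place, was at 239 and 270 against 254 and 247. The log2 fold changes of the 8 lay between -0.11 and 0.10, with 95% intervals that reached -0.24 for Sptan1 and 0.26 for Nfasc. Of the 8, 3 were higher and 1 lower in both APP libraries, against 20.8% and 19.7% of all features.

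The presynaptic partners of the Cav pores did not share a sign. Rims1, which tethers channels at release sites, was at 304 and 282 CPM in APP and 251 and 252 in WT (log2 fold change 0.22, adjusted p = 0.233). Rimbp2, which links the same proteins, was at 48.4 and 57.4 CPM against 62.2 and 62.3 (log2 fold change -0.23, adjusted p = 0.337). Neither pair of groups overlapped. Of the NALCN leak channel genes the largest value was that of Fam155a (-0.13), and of the AMPA receptor genes that TARPs serve, Gria1 to Gria4 lay between -0.10 and 0.06. Rem1, of the RGK proteins that inhibit Cav channels, was listed with 0 and 4 counts in APP and with 10 and 10 in WT.

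Channels that release calcium from internal stores completed the list. Itpr2, the inositol trisphosphate receptor of astrocytes, was at 36.1 and 38.0 CPM in APP and 29.2 and 29.5 in WT (log2 fold change 0.34, standard error 0.08, adjusted p = 0.0798). Itpr1, the main neuronal form, was at 1050 and 1010 CPM against 1130 and 1180 (log2 fold change -0.16, adjusted p = 0.363), and Ryr2, the main ryanodine receptor of the brain, at 539 and 513 against 600 and 598 (log2 fold change -0.19, adjusted p = 0.294). Of the 6 release channel genes, 1 was higher in both APP libraries (Itpr2), against 20.8% of all features. Another 3 were lower (Itpr1, Ryr2 and Ryr1), against 19.7%. Ryr1 had a log2 fold change of -0.30 (adjusted p = 0.567), while Itpr3 (-0.10) and Ryr3 (0.13) overlapped. Astrocyte markers summed to 4720 and 5070 CPM in APP and 4210 and 3840 in WT, and their part in the value of Itpr2 was not tested.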

How the data were processed

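The authors removed ribosomal RNA, made strand-specific libraries with paired reads of 100 bases, aligned these to Ensembl mouse transcripts with FANSe2 allowing 7 mismatches, and deposited raw read counts for 37539 transcripts. The Ensembl release and the treatment of reads shared by several transcripts are not given in the sources used here. The submitters' processing notes name CASAVA 1.8 and edgeR, and the build hg19, although the identifiers are of mouse transcripts. The deposited fold changes, mean levels, p-values and FDR of the authors' comparison, and 4 other columns of per-library values, were left out.

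Counts of protein-coding transcripts were summed per symbol, with other transcript types as separate features. The 8274 transcripts without a symbol (26.8% of counts) were summed per GENCODE gene in the same way, or kept singly where no gene matched. Features with at least 10 counts were kept, which left 24379. They were tested in R 4.3.3 with edgeR 4.0.16 (TMM, quasi-likelihood test, Benjamini-Hochberg, no covariate) over all 4 libraries. CPM use TMM library sizes. RPKM divide each transcript's CPM by its length in kilobases before summing. The common dispersion was 0.00805. DESeq2 1.42.0 and other settings were alternatives. Scripts were tested on simulated data. Python 3.11.15 with pandas 2.3.3, numpy 2.4.6 and matplotlib 3.10.9 compared sequences and drew figures. GENCODE M21 (GRCm38) gave coordinates and the sequences compared, and 98.2% of transcripts matched it.

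WT columns were matched to their samples by number and APP columns only to their group. With 2 mice per group an exact permutation test of 1 gene cannot go below p = 0.333. The adjusted p-values therefore depend on edgeR's pooling of the spread over genes, and they measure the spread between single mice. In fits without 1 APP library that spread is the spread of the WT pair only. Reads carry no molecular identifiers, so counts at or under the limit of 3 cover counting error only.

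The members and lists were chosen with earlier results of these data known. Values per library are given for the 2 highest members per kilobase in each class, the 6 of largest log2 fold change with at least 0.5 CPM and no overlap, members with 3 or fewer counts in a library, Scn2a1, the largest value in most lists of partners, and App and Prnp. Scn4b and the other members and markers with values per library were added after their values were seen. Some results that the rule names are not reported here, and the counts over the members include them.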

Additional observations from a re-analysis of the deposited data

How the results depend on the processing

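The count of members called lower, 0 in the main fit, was 1 with DESeq2 and 1 with edgeR's likelihood ratio test (0.222% and 0.48% of all features), and the count of partners called higher, also 0, was 1 with the exact and 1 with the likelihood ratio test (1.93% and 2.1%). Leaving out 1 library at a time gave 0 to 5 members higher, 0 to 7 lower, 0 to 3 partners higher and 0 to 6 lower, where 0.713% to 4.33% of all features were called higher and 0.0821% to 3.4% lower, and a median log2 fold change of the members of -0.09 to 0.01. Library totals, DESeq2 size factors, both filters, all transcript types, single transcripts and a fold of at least 1.5 gave 0 and 0, as did GENCODE gene sums and the 10 symbols in title case, which were chosen after seeing the data. The sign of 20 members was kept under every alternative run, and that of 16 turned in leave-one-out fits. No pairing of APP with WT mice is described, so no paired analysis was run. The APP columns carry the numbers 3 and 4, which the labels do not. Genes below about 1 CPM, such as Scn10a, Scn11a and Cacna1s, have intervals too wide to show moderate differences at this depth.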
